A study of Mus musculus with 14 samples.

Results

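The 10 genes described here are imprinted genes known for roles in fetal growth: H19, Igf2, Igf2r, Dlk1, Meg3, Peg3, Plagl1, Grb10, Mest and Ndn. They were taken from a fixed list by symbol, after the Entrez identifiers in the count files were mapped to mouse symbols. All 10 were found among the 26270 gene identifiers of the files, and all 10 passed the filter on low counts that left 14327 genes for testing. RNA-seq counts came from 14 libraries. The cells were mouse embryonic fibroblasts (MEFs), primary cells grown from E13.5 embryos (counted in days of gestation) and kept in 3% O2. Kat5, the gene for the lysine acetyltransferase Tip60, was deleted by exposing the cells to 250 nM 4-hydroxytamoxifen (4-OHT).

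The groups were Tip60+/+ control cells at day 3 (n = 3, replicates 1 to 3), Tip60-/- knock-out (KO) cells at day 3 (n = 3, replicates 2 to 4), control cells at day 5 (n = 4) and KO cells at day 5 (n = 4). The treatment text is the same for every library. Whether 4-OHT was also given to the controls is not stated for them alone, nor is the Cre recombinase named. Litters are named here by the number that opens each embryo identifier: 218 and 219 for control cells, and 136, 153 and 159 for KO cells. A separate litter label reads 1 or 2 in control and 1 to 3 in KO. Read by the identifiers, no litter held both genotypes, so genotype and litter cannot be told apart. By label, 5 of 7 KO libraries and 1 of 7 control libraries were male. In control at day 3, replicates 1 and 2 carry 1 embryo identifier, and most embryos gave a library at each day, so p-values describe the spread between these cultures. Total counts ran from 2187168 (KO day 3, replicate 3) to 39203154 per library. Levels are given as CPM, the count divided by the library total in units of 1e+06 after TMM scaling of that total. Kat5 was at 17.3 to 21.1 CPM in every KO library and 29.8 to 32.3 CPM in every control library. Of 10 fibroblast markers none was at 0 in any group. Their summed level was 30800 to 35500 CPM in control and 44000 to 52400 CPM in KO at day 3, without overlap, and 31400 to 47200 CPM against 30300 to 34200 CPM at day 5. At day 3, 4 of the fibroblast markers were called higher and 0 lower in KO, against 24.6% and 26.2% of all tested genes. At day 5, 2 were higher and 4 lower, against 26.3% and 26.2%.

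An imprinted gene is read mainly from the copy inherited from the mother or from the father, because DNA methylation laid down in the germ line marks the copies differently. Many imprinted genes act on fetal growth, and those read from the father's copy often promote it while those read from the mother's copy often restrain it. In this set Igf2, Dlk1, Peg3, Plagl1, Mest and Ndn are usually read from the paternal copy, and H19, Igf2r, Meg3 and, outside neurons, Grb10 from the maternal copy. A count per gene sums the reads of both copies, so parental origin was not analysed here.

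H19, Igf2, Mest and Meg3 also carry microRNA genes. Those of Meg3, Mir770 and Mir1906-1, are not shown. Both lie inside Meg3 exons and were listed at 0 counts in all 14 libraries. Mature sequences are shown for those of H19, Igf2 and Mest. H19 had the highest level per length in every group, Igf2 is its neighbour and Mest had the widest fold change. Seeds (bases 2 to 8) are in capitals and no seed is shared. The sequences are from RefSeq (GRCm38.p6). Libraries made with an mRNA kit do not measure mature microRNAs.
miR-675-5p (in H19): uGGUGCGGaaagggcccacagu
miR-675-3p (in H19): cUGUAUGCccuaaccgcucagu
miR-483-5p (in Igf2): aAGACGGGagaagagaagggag
miR-483-3p (in Igf2): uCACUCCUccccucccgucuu
miR-335-5p (in Mest): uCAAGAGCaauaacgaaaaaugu
miR-335-3p (in Mest): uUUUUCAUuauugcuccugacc
The microRNA gene Mir675 likewise lies inside an H19 exon and was listed at 0 counts in all 14 libraries, and Mir483 and Mir335 had 53 and 18 counts over all 14.

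Promoter windows were examined in RefSeq's table for 9 of the 10 members, as the 250 bases before each annotated start. Windows that overlap no annotated exon are shown for Mest, which changed most, for Igf2 at the fourth of its annotated starts, and for Igf2r, which was not called at either day. Capitals mark matches on either strand to GGGCGG (the GC box), TATAAA (the TATA box) or GGGGCCCC (the core recognised by the PLAGL1 protein); matches to the GC box may overlap one another.
Mest, chr6:30737800-30738049, plus strand: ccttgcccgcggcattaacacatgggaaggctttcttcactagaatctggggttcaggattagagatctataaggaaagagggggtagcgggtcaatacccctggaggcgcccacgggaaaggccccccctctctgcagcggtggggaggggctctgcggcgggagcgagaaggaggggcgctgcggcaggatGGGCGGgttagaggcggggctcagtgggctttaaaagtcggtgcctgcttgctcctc
Igf2, chr7:142657497-142657746, minus strand: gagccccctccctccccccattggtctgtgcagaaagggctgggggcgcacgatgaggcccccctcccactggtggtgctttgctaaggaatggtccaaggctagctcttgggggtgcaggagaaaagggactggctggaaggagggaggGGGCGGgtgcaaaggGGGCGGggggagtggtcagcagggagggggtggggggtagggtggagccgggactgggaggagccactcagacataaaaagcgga
Igf2r, chr17:12769707-12769956, minus strand: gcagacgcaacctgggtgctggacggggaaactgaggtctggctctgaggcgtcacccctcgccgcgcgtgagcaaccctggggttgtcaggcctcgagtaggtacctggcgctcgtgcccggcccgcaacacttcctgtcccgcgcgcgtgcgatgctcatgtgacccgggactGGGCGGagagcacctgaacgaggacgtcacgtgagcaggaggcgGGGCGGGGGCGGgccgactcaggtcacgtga
The Mest window held 1 GC box and 14 CpG dinucleotides, the Igf2 window 2 GC boxes and 6 CpG, and the Igf2r window 3 GC boxes and 27 CpG, against a median of 6 CpG over 32851 windows of the same length. A GC box was present in 32.7% of those windows and a TATA box in 12.4%. GGGGCCCC occurred in 0.889% of all windows and, among the members, in the window of Peg3. These are matches of letters, and a count per gene does not say which start was used.

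Most of the 10 genes had more RNA in KO cells. At day 3, 7 were called higher and 1 lower by edgeR's quasi-likelihood test at an adjusted p below 0.05, while 50.9% of all tested genes were called in either direction, 24.6% higher and 26.2% lower. At day 5, 7 were again called higher and 1 lower, against 52.5% of all tested genes in either direction, 26.3% higher and 26.2% lower. The median log2 fold change of the 10 genes was 1.00 at day 3 and 1.11 at day 5, and that of all tested genes was -0.004 and 0.021. H19, Igf2, Mest, Peg3, Plagl1 and Dlk1 were called higher at both days, 6 of 10 genes, which was the case for 15.6% of tested genes. The 10 genes were chosen with earlier results of these data known, so these shares are no independent test of the set. Meg3 was called lower at day 3 and higher at day 5, Grb10 was called at day 3 only, Ndn was called lower at day 5, and Igf2r was called at neither day. Of the 6 genes usually read from the paternal copy 5 were called higher at each day, and of the 4 usually read from the maternal copy 2 were called higher at each day.

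**Figure D1:**
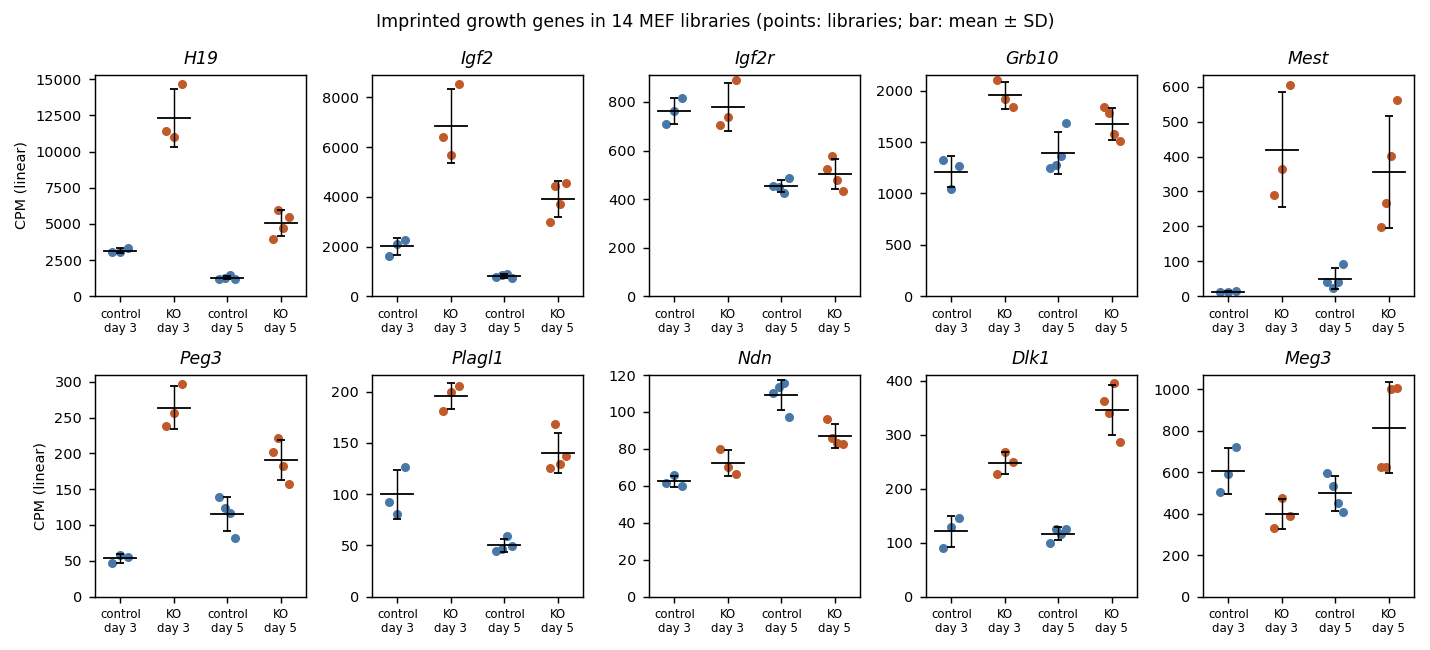
Level of each of the 10 genes (CPM, linear axis from 0) in every library of the 4 groups, with the mean and SD of each group. H19 lay between 3036 and 3336 CPM in control and between 10993 and 14656 CPM in KO at day 3, and the Igf2r groups overlapped at both days.

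H19 makes an abundant untranslated RNA of fetal tissues, and Igf2, its neighbour on chromosome 7, encodes insulin-like growth factor 2, a main growth factor of the fetus. H19 lies at mm10 positions 142575530 to 142578146 and Igf2 at 142650768 to 142666816, both on the minus strand. At day 3, H19 was at 3090, 3036 and 3336 CPM in control (replicates 1 to 3) and at 11419, 10993 and 14656 CPM in KO (replicates 2 to 4). Every KO library was above every control library, and the increase was 1.97 ± 0.162 on the log2 scale (SE, adjusted p = 5.65e-07), or 3.92-fold. At day 5, H19 was at 1224, 1277, 1441 and 1201 CPM in control and at 3991, 5994, 4719 and 5509 CPM in KO (replicates 1 to 4). The groups were again apart, by 1.98 ± 0.140 (adjusted p = 1.58e-07), although both had fallen since day 3.

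Igf2 followed the same order. Its levels at day 3 were 1638, 2108 and 2276 CPM in control and 6400, 5664 and 8531 CPM in KO, an increase of 1.77 ± 0.189 (adjusted p = 5.17e-06), or 3.42-fold. At day 5 they were 777, 842, 888 and 731 CPM in control and 2990, 4440, 3712 and 4561 CPM in KO. The groups did not overlap at either day, and the day 5 increase was 2.28 ± 0.167 (adjusted p = 2e-07), or 4.85-fold. The pair together took 0.453% to 0.555% of all counts in control and 1.62% to 2.2% in KO at day 3, and 0.183% to 0.236% against 0.736% to 1.09% at day 5. Igf2os, a transcript annotated across part of Igf2 on the other strand, rose with it (1.30 ± 0.255 at day 3, adjusted p = 0.000774, and 1.90 ± 0.240 at day 5, adjusted p = 1.81e-05). Its total of 1677 counts over 14 libraries compares with 742989 for Igf2, and since the strand setting of the counting is not given, reads of the overlapping part cannot be assigned with certainty.

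Igf2r encodes the receptor that takes Igf2 up for breakdown in lysosomes, and it showed no called difference. At day 3 it was at 708, 762 and 818 CPM in control and at 705, 739 and 890 CPM in KO, and at day 5 at 453, 451, 424 and 486 CPM in control and 523, 578, 477 and 435 CPM in KO. The groups overlapped at both days. The difference at day 3 was 0.03 on the log2 scale (95% interval -0.22 to 0.27, adjusted p = 0.855) and at day 5 it was 0.15 (95% interval -0.06 to 0.36, adjusted p = 0.219). With upper-quartile scaling, which moved the fold changes of all genes by 0.127 at day 3 and 0.119 at day 5, Igf2r was called at day 5 (0.27, adjusted p = 0.033). Airn, the untranslated RNA that overlaps the start of Igf2r on the other strand, was at 1.67 to 5.17 CPM over the 14 libraries and was not called (0.50 ± 0.299, adjusted p = 0.172, and 0.55 ± 0.245, adjusted p = 0.0744).

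Grb10 encodes an adaptor protein that binds insulin and IGF receptors and dampens their signal. It rose at day 3, from 1329, 1043 and 1262 CPM in control to 2104, 1916 and 1843 CPM in KO (0.69 ± 0.133, adjusted p = 0.000679), with no overlap. At day 5 control libraries were at 1251, 1274, 1363 and 1686 CPM and KO libraries at 1836, 1779, 1578 and 1509 CPM. Control replicate 4, the only library of litter 219, lay among the KO libraries, and the difference of 0.27 was not called (adjusted p = 0.0645). It was called without that library (0.37, adjusted p = 0.006) and, just, without KO replicate 4 (0.31, adjusted p = 0.0498). With all libraries it was called with total-count scaling (0.34, adjusted p = 0.0156), upper-quartile scaling (0.38, adjusted p = 0.0103) and DESeq2 (0.26, adjusted p = 0.0458).

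**Figure D2:**
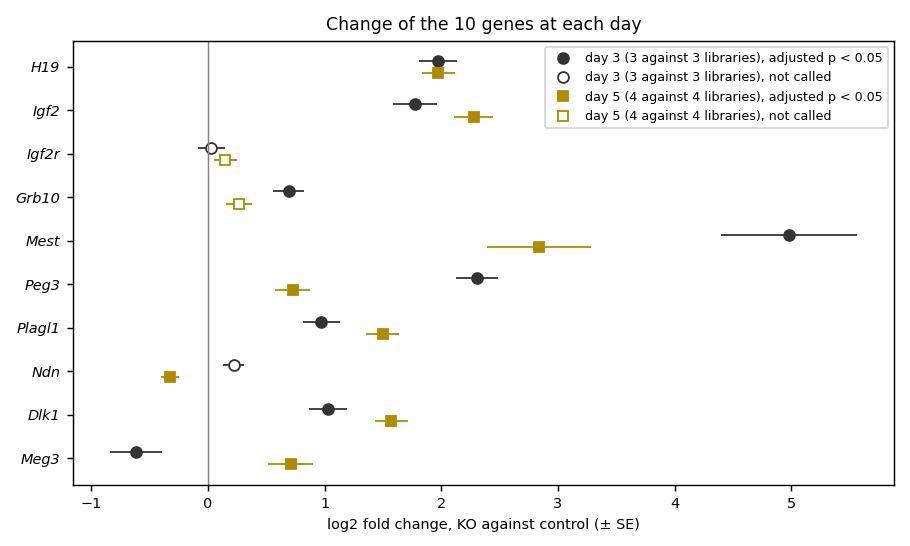
Log2 fold change of each gene in KO against control at day 3 (circles) and day 5 (squares) with its standard error. Filled symbols passed the test. Mest lay farthest to the right at both days (4.98 and 2.84), and Meg3 changed side (-0.61 and 0.71).

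Mest, a gene on chromosome 6 for a hydrolase-like protein of the mesoderm, had the largest fold change of the 10 at both days. In control it was at 12.1, 11.8 and 16.1 CPM at day 3 and in KO at 290, 364 and 605 CPM, an increase of 4.98 ± 0.584 (adjusted p = 3.54e-05), or 31.6-fold. At day 5 control libraries were at 41.7, 24.1, 39.8 and 93.5 CPM and KO libraries at 198, 266, 401 and 562 CPM (2.84 ± 0.447, adjusted p = 0.000279), or 7.16-fold. The lowest KO library was above the highest control library at each day, and control replicate 4 was the highest control. KO libraries of litter 153 (replicates 3 and 4) were the highest at day 5. Copg2, which overlaps the end of Mest, showed no called difference (0.005 at day 3, adjusted p = 0.972, and 0.008 at day 5, adjusted p = 0.945), with 43.4 to 55.8 CPM in every library.

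Peg3 and Plagl1 both encode zinc finger proteins that bind DNA. Peg3 was at 46.6, 57.6 and 55.8 CPM in day 3 control and at 238, 257 and 297 CPM in KO, an increase of 2.31 ± 0.181 (adjusted p = 5.75e-07). At day 5 it was at 139, 124, 117 and 81.8 CPM in control and at 201, 222, 183 and 157 CPM in KO. These groups were also apart, by 0.72 ± 0.148 (adjusted p = 0.0011), a smaller difference than at day 3. Plagl1, which is known for a role in arresting the cell cycle and for acting on other imprinted genes, was at 92.7, 80.1 and 126 CPM in day 3 control and at 181, 200 and 205 CPM in KO (0.97 ± 0.158, adjusted p = 0.00021). Its day 5 levels were 44.5, 46.2, 59.2 and 49.7 CPM in control and 126, 169, 129 and 137 CPM in KO (1.50 ± 0.139, adjusted p = 1.78e-06). No control library reached a KO library of its day.

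Ndn, which encodes necdin, a protein of the MAGE family that restrains growth in neurons, had small differences. At day 3 it was at 61.4, 66.0 and 59.8 CPM in control and at 80.2, 70.4 and 66.5 CPM in KO. All KO libraries were above all controls, yet the difference of 0.22 ± 0.092 was not called (adjusted p = 0.0586), and it was called with sex as a covariate (0.30, adjusted p = 0.0149) and with upper-quartile scaling (0.35, adjusted p = 0.0054). At day 5 control libraries were at 110, 113, 116 and 97.5 CPM and KO libraries at 96.4, 86.0, 83.0 and 82.9 CPM. KO was lower in every library, by 0.32 on the log2 scale (-0.32 ± 0.077, adjusted p = 0.0029).

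Dlk1 and Meg3 are neighbours on chromosome 12. Dlk1 encodes a membrane protein of the Delta family that holds back fat cell formation, and Meg3 an untranslated RNA. Dlk1 was at 89.6, 129 and 145 CPM in day 3 control and at 227, 267 and 249 CPM in KO (1.03 ± 0.160, adjusted p = 0.000139). At day 5 it was at 98.9, 125, 116 and 125 CPM in control and at 362, 340, 395 and 286 CPM in KO (1.57 ± 0.139, adjusted p = 1.09e-06). Neither day showed overlap.

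Meg3 moved in opposite directions at the 2 days. At day 3 it was at 503, 592 and 722 CPM in control and at 330, 473 and 389 CPM in KO (-0.61 ± 0.223, adjusted p = 0.0343). Its direction held in each alternative fit, but the call did not. Leaving out 1 library gave differences of -0.75 to -0.47, and the call ended without KO replicate 2 (-0.50, adjusted p = 0.124), KO replicate 4 (-0.60, 0.0881), control replicate 2 (-0.63, 0.065) or control replicate 3 (-0.47, 0.13). With all libraries kept it ended with no filter on low counts (-0.60, adjusted p = 0.0571) and with upper-quartile scaling (-0.49, adjusted p = 0.09). At day 5 control libraries were at 597, 534, 450 and 409 CPM and KO libraries at 622, 624, 1002 and 1005 CPM (0.71 ± 0.192, adjusted p = 0.00732). The higher pair of KO libraries was that of litter 153, and the lower pair, of litters 159 and 136, was close to control replicate 1.

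Counting the members without overlap between KO and control gave 9 of 10 at day 3 and 8 of 10 at day 5. The corresponding share of all tested genes was 57.8% at day 3 and 47.4% at day 5.

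Ratios of neighbouring or partner genes within a library do not depend on how libraries are scaled. H19 to Igf2 counts stood at 1.44 to 1.89 in control and 1.72 to 1.94 in KO at day 3, overlapping ranges (log2 difference 0.19, two-sided exact permutation p = 0.3). At day 5 they stood at 1.52 to 1.64 in control and 1.21 to 1.35 in KO, so that Igf2 had gained on H19 in every KO library (log2 difference -0.30, exact permutation p = 0.0286, or 0.0858 after Benjamini-Hochberg adjustment over 6 tests). With 70 labelings of 4 against 4 libraries no lower p can occur, and with the 20 of 3 against 3 none below 0.1. Meg3 to Dlk1 was 4.6 to 5.61 in control and 1.45 to 1.77 in KO at day 3 (log2 difference -1.67, exact permutation p = 0.1, adjusted 0.12). At day 5 it was 3.26 to 6.04 in control and 1.72 to 3.51 in KO, and KO replicate 4 overlapped the controls (-0.88, exact permutation p = 0.0571, adjusted 0.114).

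Igf2r counts per Igf2 count were 0.36 to 0.432 in control and 0.104 to 0.131 in KO at day 3. The log2 difference was -1.74 (exact permutation p = 0.1, adjusted 0.12). At day 5 the ratio was 0.478 to 0.665 in control and 0.0955 to 0.175 in KO (-2.12, exact permutation p = 0.0286, adjusted 0.0858). Receptor mRNA relative to ligand mRNA was thus lower in every KO library of each day, and no ratio passed after adjustment.

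**Figure D3:**
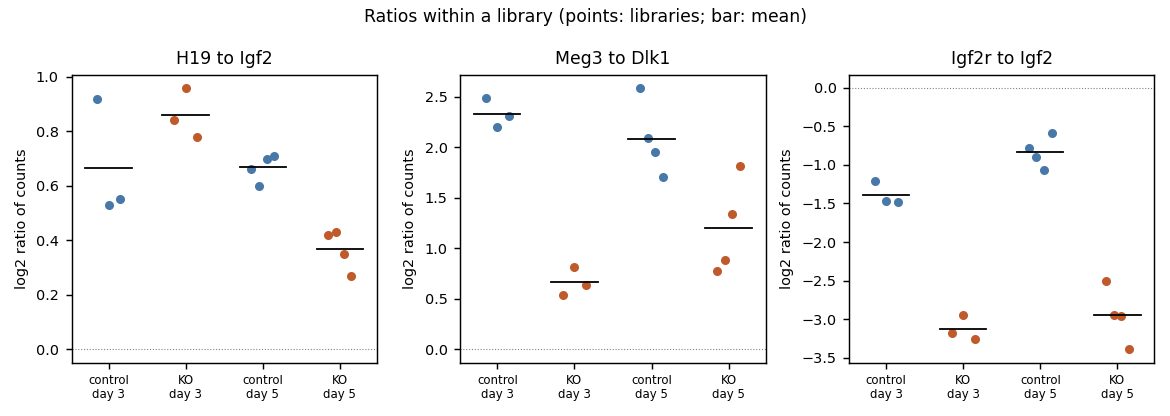
Log2 ratio of counts within each library for 3 gene pairs, with group means as bars. Igf2r to Igf2 lay between -1.48 and -0.59 in all controls and between -3.39 and -2.51 in all KO libraries.

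Several members differed between day 3 and day 5 in both genotypes. The day 5 groups also hold embryos without a day 3 library, and the cause of these differences was not tested. From day 3 to day 5, 7 of 10 were called in control, where 38.3% of tested genes were called, and 6 of 10 in KO, where 12% were. In control 4 fell and 3 rose (19.9% and 18.3% of tested genes), and in KO 4 fell and 2 rose (7.06% and 4.98%). H19 fell alike, by 1.30 in control (-1.30 ± 0.145, adjusted p = 9.91e-06) and by 1.29 in KO (-1.29 ± 0.145, adjusted p = 7.09e-05). Igf2 fell by 1.31 in control (adjusted p = 3.83e-05) and by 0.81 in KO (adjusted p = 0.00697), and Igf2r fell by 0.75 (adjusted p = 7.89e-05) and by 0.63 (adjusted p = 0.00157). Plagl1 fell by 1.01 in control (adjusted p = 0.000121) and by 0.48 in KO (adjusted p = 0.046), and the KO call was lost when any of 6 of the 7 KO libraries was left out (adjusted p up to 0.145).

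Peg3, Mest and Ndn were higher at day 5 than at day 3 in control: by 1.11 (adjusted p = 0.000153), 1.90 (adjusted p = 0.0125) and 0.81 (adjusted p = 6.56e-06). In KO none of them was called, with log2 differences of -0.47 (adjusted p = 0.0702), -0.24 (adjusted p = 0.812) and 0.26 (adjusted p = 0.0625). Peg3 was called there with DESeq2 (-0.49, adjusted p = 0.0325) and in the model that includes sex (-0.46, adjusted p = 0.0483), and Ndn in that model (0.28, adjusted p = 0.0249) and with upper-quartile scaling (0.29, adjusted p = 0.0339). Meg3 rose in KO (1.04 ± 0.213, adjusted p = 0.00664) and was not called in control (-0.28, adjusted p = 0.301). Dlk1 was called in KO (0.49, adjusted p = 0.0481), a call lost when any of 6 of the 7 KO libraries was left out (adjusted p up to 0.142). In the 3 KO embryos sampled at each day H19, Igf2, Igf2r, Peg3, Plagl1 and Grb10 were lower at day 5 in 3 of 3, and Dlk1, Meg3 and Ndn higher in 3 of 3. Mest was higher in 1 of 3. In the 2 control embryos sampled at each day H19, Igf2, Igf2r, Plagl1 and Dlk1 were lower in 2 of 2. Peg3, Grb10, Mest and Ndn were higher in 2 of 2 and Meg3 in 1 of 2.

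Tests of the difference between the KO effects at day 5 and day 3 called 3 of 10 members, against 14.3% of tested genes, with 1 more positive (7.16%) and 2 more negative (7.15%). The effect was more positive at day 5 for Meg3 (1.32 ± 0.295, adjusted p = 0.0103) and more negative for Peg3 (-1.58 ± 0.229, adjusted p = 0.000872) and Ndn (-0.55 ± 0.120, adjusted p = 0.00875). For Mest the difference of -2.14 ± 0.676 was just outside the threshold (adjusted p = 0.0559). It was called with DESeq2 (-2.16, adjusted p = 0.0191), with sex as a covariate (-1.84, adjusted p = 0.0418), without KO day 5 replicate 4 (-2.45, adjusted p = 0.0385) and without control day 5 replicate 2 (-2.38, adjusted p = 0.0326). H19 had a difference of 0.005 (95% interval -0.44 to 0.45, adjusted p = 0.993), and the other 5 members had adjusted p values of 0.0977 (Dlk1) to 0.646 (Igf2r). With the control day 3 libraries of 1 embryo summed, the difference of Dlk1 was called (0.63, adjusted p = 0.0401), as it was without control day 3 replicate 1 (0.72, adjusted p = 0.016).

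Levels can be compared between genes only per length. In CPM per kilobase of gene, control cells at day 3 held H19 at 1206 ± 61.1 (SD, n = 3), Igf2 at 474 ± 78.1, Grb10 at 235 ± 28.9 and Igf2r at 85.4 ± 6.17. Meg3 (46.9 ± 8.55) and Ndn (37.8 ± 1.93) overlapped, as did Dlk1 (25.2 ± 5.93) and Plagl1 (18.97 ± 4.56). Peg3 (8.05 ± 0.891) and Mest (4.79 ± 0.859) were the lowest. In KO cells at day 3, H19 (4725 ± 766), Igf2 (1621 ± 352) and Grb10 (379 ± 26.1) kept the first 3 places, while Mest moved from the last place to the fourth (151 ± 59.4) and Meg3 to the last (30.8 ± 5.57). Igf2r (87.1 ± 11) followed. The next 5 genes each overlapped their neighbour in the order.

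At day 5 Grb10 (270 ± 38.9 CPM per kilobase, n = 4) stood above Igf2 (191 ± 16.3) in control, and below it in KO (325 ± 30.5 against 927 ± 172). H19 led in both, at 492 ± 41.3 in control and 1932 ± 337 in KO. Mest was at 17.9 ± 10.9 in control, overlapping Dlk1 above it and Peg3 below it, and at 128 ± 57.8 in KO, where it overlapped Dlk1 (71.9 ± 9.52). Plagl1 was the lowest in control (9.49 ± 1.24), and in KO Plagl1 (26.7 ± 3.75) and Peg3 (28.8 ± 4.17) overlapped in the last places.

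Profiles over the 14 libraries were compared by the mean absolute difference of log2 CPM after each gene was centred on its mean. Among members H19 and Igf2 were the closest pair (0.172) and Mest and Ndn the farthest (1.93). Profiles were not scaled, so genes with small differences lie close whatever their direction. Grb10 and Ndn were the next closest pair (0.338), with KO differences of 0.27 and -0.32 at day 5. Outside the members, Hmcn1 was nearest to both H19 (0.251) and Igf2 (0.232), followed by Igf2os (0.276) and Fras1 (0.236). The nearest genes were Srgap1 and Foxo3 for Igf2r (0.09 and 0.103), Col4a2 and Ap1b1 for Grb10 (0.079 and 0.087), Cdh17 and Islr for Mest (0.312 and 0.329) and Eepd1 and Dnm3 for Peg3 (0.205 and 0.238). For Plagl1 they were Ikzf4 and Pard3b (0.167 and 0.194), for Ndn Bop1 and Jpt1 (0.061 and 0.075), for Dlk1 Zfp286 and Tmem80 (0.175 and 0.179) and for Meg3 Mir22hg and Slc25a27 (0.143 and 0.167).

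The domains around the members held 27 further listed imprinted genes, of which 14 were tested. At day 3, 6 were called higher and 3 lower (median 0.16), against 24.6% and 26.2% of all tested genes. At day 5, 6 were higher and 1 lower (median 0.48), against 26.3% and 26.2%. Zim1, a zinc finger gene beside Peg3 usually read from the maternal copy, went from 2.17 to 2.73 CPM in control to 19.6 to 27.4 CPM in KO at day 3 (3.17 ± 0.220, adjusted p = 1.36e-07) and rose by 1.56 ± 0.168 at day 5 (adjusted p = 4.49e-06). Peg3 and Zim1, usually read from opposite parental copies, were both higher at each day, as were Igf2 and H19. Dlk1 and Meg3, also usually read from opposite copies, moved apart at day 3 (1.03 and -0.61). At day 5 both were higher (1.57 and 0.71). Ddc, which encodes the decarboxylase that makes dopamine and lies beside Grb10, rose at day 3 (2.27 ± 0.474, adjusted p = 0.00121), at 0.779 to 1.26 CPM in control and 2.01 to 6.33 CPM in KO, and at day 5 (0.98 ± 0.352, adjusted p = 0.0302).

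Near Meg3 the untranslated RNAs Rian and Mirg were also lower at day 3 (-0.33 ± 0.108, adjusted p = 0.0215, and -0.86 ± 0.179, adjusted p = 0.00124). At day 5 Mirg was higher (0.37 ± 0.144, adjusted p = 0.0413) and Rian was not called (-0.03, adjusted p = 0.799). Begain, at the other end of that domain, fell at day 3 (-1.16 ± 0.231, adjusted p = 0.000866) and was not called at day 5 (0.41, adjusted p = 0.0941). Dio3, for an enzyme that inactivates thyroid hormone, rose at both days. It had 4 counts in all over the day 3 controls and 241 over the day 3 KO libraries (adjusted p = 0.00208), and at day 5 it rose by 2.17 ± 0.668 (adjusted p = 0.0162). The day 5 groups overlapped, at 0.326 to 4.58 CPM in control and 3.57 to 12.0 CPM in KO. Near Ndn, Peg12 fell at day 5 (-0.62 ± 0.139, adjusted p = 0.00198), while Mkrn3 was higher at day 5 (1.22 ± 0.384, adjusted p = 0.0159). Mkrn3 was low there, at 0.727 to 1.63 CPM in control and 2.38 to 2.77 CPM in KO. At day 3 Ube3a was higher (0.28 ± 0.110, adjusted p = 0.0489), as was Magel2 (2.56 ± 0.580, adjusted p = 0.00218), at 1.13 CPM or less in every library of that day. Usp29, beside Peg3, had 80 counts over the 14 libraries, Ins2 1 count, and Snrpn and Snurf, which overlap each other, were listed at 0.

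**Figure D4:**
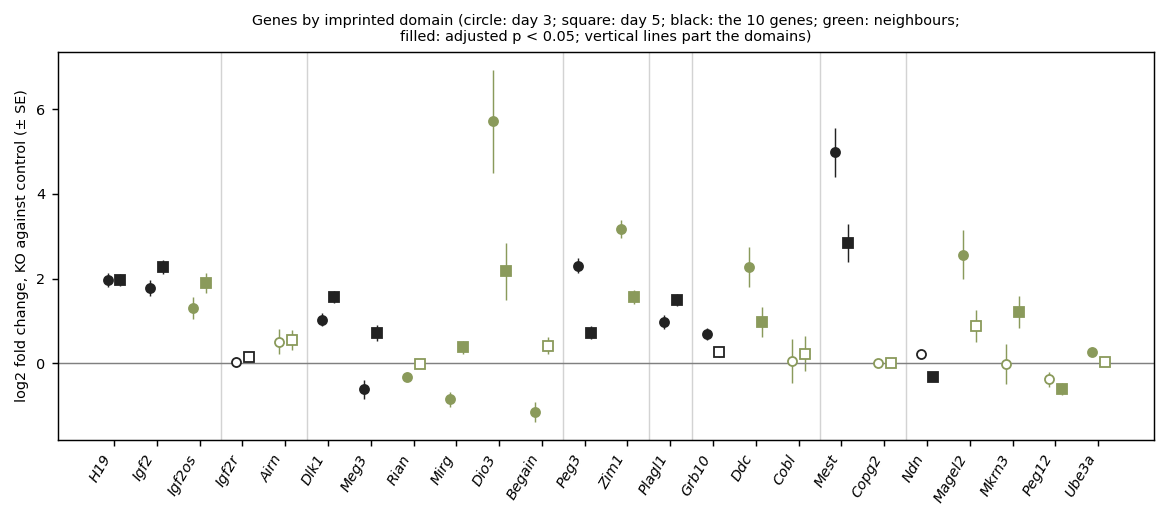
Log2 fold change (± SE) of the members (black) and tested neighbours (green) in each imprinted domain, at day 3 (circles) and day 5 (squares), filled where the test was passed. In the Dlk1 and Meg3 domain Meg3, Rian, Mirg and Begain lay below 0 at day 3 while Dlk1 and Dio3 lay above it.

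Imprinted genes of other domains did not share the direction of the members as a group. Of 29 tested, 5 were called higher and 5 lower at day 3 (median -0.04), against 24.6% and 26.2% of all tested genes. At day 5, 7 were higher and 9 lower (median -0.01), against 26.3% and 26.2%. Nnat, for the membrane protein neuronatin, rose at both days (2.41 ± 0.330, adjusted p = 5.58e-05, and 1.47 ± 0.260, adjusted p = 0.000379). Asb4, for a ubiquitin ligase subunit, rose too (2.91 ± 0.375, adjusted p = 2.56e-05, and 0.95 ± 0.261, adjusted p = 0.00729). The creatine synthesis gene Gatm fell at both days (-1.23, adjusted p = 0.00786, and -1.33, adjusted p = 0.000808), as did the lipid transfer gene Osbpl5 (-0.36, adjusted p = 0.0047, and -0.69, adjusted p = 6.03e-06).

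Among 22 partners of IGF signalling, all tested, 9 were called higher and 5 lower at day 3 (median 0.11), and 9 higher and 6 lower at day 5 (median 0.18). The shares of all tested genes were 24.6% higher and 26.2% lower at day 3, and 26.3% and 26.2% at day 5. The other ligand, Igf1, rose from 12.3 ± 3.22 to 36.6 ± 4.67 CPM at day 3 (1.56 ± 0.173, adjusted p = 6.91e-06) and was higher at day 5 (0.99 ± 0.140, adjusted p = 4.75e-05). Irs1, the docking protein under the insulin and IGF1 receptors, rose by 1.70 ± 0.108 (adjusted p = 8.26e-08) and 0.89 ± 0.091 (adjusted p = 2.94e-06). The IGF binding protein gene Igfbp5 rose by 2.09 ± 0.206 at day 3 (adjusted p = 3.51e-06) and 0.89 ± 0.173 at day 5 (adjusted p = 0.000717), and Igfbp4 by 2.39 ± 0.255 (adjusted p = 1.01e-05) and 1.98 ± 0.217 (adjusted p = 1.02e-05).

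Igf2bp2 and Igf2bp1 encode proteins that bind Igf2 mRNA, and both fell while Igf2 rose. Igf2bp2 was at 238 ± 12.3 CPM in control and 117 ± 9.57 CPM in KO at day 3 (-1.02 ± 0.114, adjusted p = 7.75e-06), and it fell by 1.33 at day 5 (-1.33 ± 0.099, adjusted p = 2.27e-07). Igf2bp1 fell at both days (-0.71, adjusted p = 0.000262, and -0.82, adjusted p = 1.43e-05), and Igf2bp3 at day 5 (-0.50, adjusted p = 1.24e-05). Htra1, a secreted protease that cuts IGF binding proteins, fell at both days (-1.33 ± 0.178, adjusted p = 4.24e-05, and -0.81 ± 0.152, adjusted p = 0.000595).

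Of 24 tested genes that write or keep imprinting marks, 2 were called higher and 5 lower at day 3 (median -0.10), and 2 higher and 10 lower at day 5 (median -0.12). The shares of all tested genes were 24.6% higher and 26.2% lower at day 3, and 26.3% and 26.2% at day 5. Zfp57, the zinc finger protein that guards methylated imprinting control regions, fell from 78.1 ± 3.73 to 21.5 ± 5.87 CPM at day 3 (-1.90 ± 0.173, adjusted p = 1.54e-06) and by a smaller amount at day 5 (-0.65 ± 0.141, adjusted p = 0.00153; difference between the days 1.25, adjusted p = 0.00252). The histone methyltransferase genes Ehmt2 and Ehmt1 fell at both days (Ehmt2 -0.48 and -0.58, adjusted p = 3.3e-05 and 1.54e-06, and Ehmt1 -0.45 and -0.34, adjusted p = 7.83e-05 and 0.000188). Tet1, for a methylcytosine dioxygenase, rose at day 3 (1.13 ± 0.185, adjusted p = 0.000181), Dnmt3b, for a DNA methyltransferase, rose at day 5 (1.02 ± 0.213, adjusted p = 0.00115), and Smchd1, known from X inactivation, rose at day 3 (0.52 ± 0.077, adjusted p = 8.96e-05). Zfp445, another zinc finger gene on this list, was higher at day 5 (0.39 ± 0.080, adjusted p = 0.00102). DNA methylation was not analysed here.

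Markers of other cell types moved with genotype in part, and in bulk RNA more cells of a type and more RNA per cell cannot be told apart. Set against 24.6% and 26.3% of all tested genes, 8 of 10 tested cartilage markers were called higher at day 3 and 7 at day 5. Their summed level over 11 genes was 84 to 177 CPM in control and 2343 to 2751 CPM in KO at day 3, and 1860 to 3862 CPM in KO at day 5. Col2a1 alone made up most of the KO sums, at 2120 to 2460 CPM at day 3 and 1708 to 3548 CPM at day 5. Day 5 controls of litter 218 were at 189 to 366 CPM. Control replicate 4, of litter 219 and male, was at 2622 CPM, of which Col2a1 gave 2472 CPM. In that library H19 (1201 CPM), Igf2 (731 CPM), Peg3 (81.8 CPM), Meg3 (409 CPM) and Ndn (97.5 CPM) were the lowest of the 4 controls. The next lowest control was close for H19 (1224 CPM) and Igf2 (777 CPM). Dlk1 and Plagl1 were within the range of the others. Mest (93.5 CPM), Grb10 (1686 CPM) and Igf2r (486 CPM) were the highest, Grb10 and Igf2r within the range of the day 5 KO libraries. KO replicate 2, the single female KO embryo, had H19 at 11419 CPM at day 3 and 5994 CPM at day 5, within or above the range of the male KO libraries.

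Of all tested genes, 24.6% were called higher and 26.2% lower at day 3, and 26.3% and 26.2% at day 5. These shares stand beside the counts below. Skeletal muscle markers had 2 of 6 tested genes higher at day 3 and 0 at day 5, where 1 was lower. Pax7 was at 0 in control at both days and in KO at day 3, and had 1 count over the day 5 KO libraries. The summed level of the muscle markers was 220 to 440 CPM in control and 236 to 437 CPM in KO at day 3. Of 7 macrophage markers 4 were lower at day 3 (47.2 to 64.4 CPM in sum in control, 31.9 to 40.5 CPM in KO). Of 6 tested adipocyte and preadipocyte markers 2 were higher and 1 lower at day 3, and 3 higher at day 5. Zfp423 rose at both days (2.37, adjusted p = 6.31e-06, and 1.91, adjusted p = 4.11e-06), Lpl fell at day 3 (-1.12, adjusted p = 0.0271) and Adipoq was at 0 in both day 3 groups. The summed level of that list was 54.1 to 76 CPM in control and 48.7 to 63.9 CPM in KO at day 3. Endothelial markers summed to 81 to 103 CPM in control and 44.3 to 62.9 CPM in KO at day 3, without overlap, and to 30.4 to 112 CPM and 28.2 to 44.1 CPM at day 5. Flt1 made up most of that sum in control at day 3, at 69.3 to 87.4 CPM. Of the 5 tested, 1 was higher at day 3 (Tek, 2.11, adjusted p = 6.26e-05). At day 5, 2 were higher (Tek, 2.40, adjusted p = 3.47e-06, and Kdr, 0.83, adjusted p = 0.0211) and 1 lower (Flt1, -1.94, adjusted p = 0.00304). Of 6 neural and glial markers 2 were higher at day 3, and 1 was higher and 1 lower at day 5. Of 4 epithelial markers 1 was higher at day 3 and 2 at day 5, and none of the 6 blood and liver markers passed the filter. The part of these cells in the levels of the imprinted genes was not tested beyond the values above.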

How the data were processed

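The authors deposited 1 table per library with whole-number counts of reads per gene and the gene's length, with no normalization. Per the labels' protocols, stranded mRNA libraries were read as 80 bp paired-end reads, and featureCounts and mm10 are named per the submitters' processing notes. Which aligner, annotation and strand setting were used is not given in the sources used here. Lines without a gene identifier (909 of 27179, with 0.194% to 0.315% of counts) were left out.

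Genes were filtered with filterByExpr of edgeR 4.0.16 (with limma 3.58.1 in R 4.3.3), libraries were scaled by TMM, and edgeR's robust quasi-likelihood test was run in a single model holding the 4 group means. P-values were adjusted by Benjamini-Hochberg over the 14327 genes kept. Xist, Tsix and Y-linked genes (112) were not tested. SE is the log2 fold change divided by the square root of F. The pipeline was tested on simulated data. The lowest member count in the shallowest library was 150 (Ndn). Every pair of libraries within a group differed beyond sampling noise (chi-square per degree of freedom 3.18 to 75.3). DESeq2 1.42.0, other scalings, no filter, sex as a covariate, glmTreat, blocks and left-out libraries were alternatives.

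The members and the 14 gene lists (189 of 192 entries matched by symbol) were chosen with earlier results of these data known. All members are named. Each other list gives up to 3 called genes per direction with the smallest adjusted p and a mean of at least 2 CPM, of which some are printed, and each member its 2 nearest profiles. Coordinates and symbols are from RefSeq GRCm38.p6, which mm10 is built on, and strands and exons from GENCODE M21. Embryo identifiers link day 3 to day 5. Libraries of 1 embryo had deviations from their group means that correlated at -0.023 to 0.204, and a block for the embryo changed no call.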

Additional observations from a re-analysis of the deposited data

Results flagged for a closer look

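For 3 genes the effect of the KO differed between day 5 and day 3 in edgeR's test of that difference over all genes: Meg3 (1.32), Peg3 (-1.58) and Ndn (-0.55, all as day 5 minus day 3 on the log2 scale). These stayed called when any 1 of the 14 libraries was left out, with ranges of 1.18 to 1.46, -1.72 to -1.48 and -0.61 to -0.45. Tested against a 1.5-fold change (glmTreat), Meg3 (adjusted p = 0.143) and Ndn (adjusted p = 1) were not called. In day 5 groups of 4 libraries no member level and no ratio had a library far enough from the others to pass Dixon's 95% critical value of 0.829 (26 groups checked).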

How the results depend on the processing

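Of the values of single members under the alternatives, 783 kept their direction and side of the threshold, 25 passed it newly, 35 no longer passed and 17 changed sign. Sign changes touched uncalled differences near 0. The H19 difference between days was -0.021 with no filter, -0.003 with upper-quartile scaling, -0.022 with sex as a covariate, -0.016 with DESeq2 and -0.096 to 0.142 with 1 library left out. Igf2r at day 3 was -0.008 with the day 3 control replicates of 1 embryo summed and -0.074 to 0.095 with 1 library left out, Mest from day 3 to day 5 in KO -0.543 to 0.127, and Dlk1 in control -0.233 to 0.091. Tested against a 1.5-fold change (glmTreat), a stricter null, 6 members were called at day 3 (2279 of 14327 genes), where Meg3 (adjusted p = 0.617) and Grb10 (0.302) were lost. It called 5 members at day 5 (1710 genes), 1 for the difference between days (167 genes) and 1 from day 3 to day 5 in KO (138 genes). The log2 ratio of Meg3 to Dlk1 at day 5 ranged from -1.086 to -0.714 with 1 library left out. It reached p = 0.0286 (exact permutation, not adjusted) without KO replicate 4. That was the only KO library overlapping the controls, so leaving it out set the groups apart. With 1 library left out, 7 to 8 members were called at day 3 (6243 to 6786 of all genes), 8 to 9 at day 5 (6499 to 8373) and 3 to 4 for the difference between days (1275 to 2745). Replicate numbers are shared by the genotypes without a stated link, and same-numbered libraries correlated at -0.166 to 0.428. With a replicate block on that number Ndn at day 3 was called (0.28, adjusted p = 0.0147), as was the difference between days of Mest (-1.62, adjusted p = 0.00689). The causes of these changes were not tested.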
